A study of Homo sapiens with 12 samples.

Results

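The ligands, receptors and SMAD proteins of the TGF-β and BMP pathways, with the ID genes that BMP signalling switches on, were followed in MDA-MB-231 cells in which the histone methyltransferase DOT1L was inhibited or targeted by siRNA. The 10 genes were TGFB1, TGFB2, TGFBR2, BMP4, ID1, ID2, ID3, SMAD3, SMAD6 and SMAD7, and they were proposed with results of these arrays known. All 15 of their probes on the array were taken, of 47322 probes read. No probe was found only through an older gene name. A probe entered the tests if some group had it detected, at a detection p under 0.05, on each of its arrays, and 10 of the 15 probes, from 8 of the 10 genes, met this. They stand among 17909 tested probes and 10773 tested genes, each read by its brightest tested probe. Positions are those of RefSeq on build GRCh38.p14.

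MDA-MB-231 is an established line of triple-negative breast cancer cells with mesenchymal traits. RNA of 12 cultures was hybridised to Illumina Human HT-12 v4 arrays, in 6 groups of 2 that the labels call biological replicates. Control cells received 0.1% DMSO for 14 days. Compound 1 (EPZ004777, here C1) was given at 1 or 5 μM and compound 2 (Compound 55 in the labels, here C2) at 2 or 10 μM, each for 14 days. Both are DOT1L inhibitors, and DOT1L is the enzyme that methylates lysine 79 of histone H3. siRNA-1 against DOT1L was transfected at 10 nM and the cells were taken at 7 days. No mock-transfected culture was among the arrays, so that siRNA-1, transfection and the shorter time cannot be told apart. P-values over these arrays rest on the spread between the 2 cultures of a group, pooled over the 6 groups, in 1 line.

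TGF-β and BMP ligands bind pairs of type I and type II serine/threonine kinase receptors. TGF-β receptors phosphorylate SMAD2 and SMAD3, and BMP receptors phosphorylate SMAD1, SMAD5 and SMAD9. These enter the nucleus with SMAD4. SMAD6 and SMAD7 are inhibitory SMADs that are themselves induced by the pathways and limit them. The ID proteins are inhibitors of basic helix-loop-helix transcription factors and are textbook targets of BMP signalling. In breast cancer cells TGF-β is known for promoting epithelial-mesenchymal transition.

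The array-wide figures were close between the libraries. The median signal was 9.9 to 14.9 per array, 34.0% to 36.7% of probes were detected, and the lowest signal called detected was 26.4 to 38.5. Replicate arrays correlated at r = 0.991 to 0.994 over the tested probes. The mesenchymal marker VIM was detected on all 12 arrays by both of its probes and CD44 by 2 of its 3 probes, while SPARC was detected on none. CDH1, ESR1 and PGR were detected on no array, and 1 of 3 ERBB2 probes was detected on all 12 at a signal of 281 to 403.1. Among markers of blood and endothelial cells, PTPRC, CD3E and CDH5 were detected on no array and PECAM1 on 11, at 21 to 169.9. The single DOT1L probe was detected on 4 arrays, none of them control or siRNA-1 arrays, at signals of 14.7 to 45.7 over all 12, so that it could not check the siRNA-1 label.

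The promoters of ID1, ID3 and SMAD6 are shown because these genes are known direct targets of BMP signalling and were the 3 such members higher with siRNA-1 in the arrays below. Each window runs from 250 bases before to 50 bases after the start of the gene in RefSeq (build GRCh38.p14), at chr20:31605039-31605338 on the plus strand for ID1, chr1:23559452-23559751 on the minus strand for ID3 and chr15:66701986-66702285 on the plus strand for SMAD6. Capitals mark matches, on either strand, to 3 SMAD-binding motifs: GGCGCC (a GC-rich box bound by SMAD1 and SMAD5), CAGAC (the SMAD box) and GTCTAGAC (the palindromic SMAD element). The first and the third read the same on both strands, and no 2 of the 3 share letters in these windows.
ID1: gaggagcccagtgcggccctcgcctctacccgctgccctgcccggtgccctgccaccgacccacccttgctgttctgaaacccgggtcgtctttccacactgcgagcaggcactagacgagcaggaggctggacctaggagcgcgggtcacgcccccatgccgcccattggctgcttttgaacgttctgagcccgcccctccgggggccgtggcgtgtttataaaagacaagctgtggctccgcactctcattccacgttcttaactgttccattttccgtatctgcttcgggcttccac
ID3: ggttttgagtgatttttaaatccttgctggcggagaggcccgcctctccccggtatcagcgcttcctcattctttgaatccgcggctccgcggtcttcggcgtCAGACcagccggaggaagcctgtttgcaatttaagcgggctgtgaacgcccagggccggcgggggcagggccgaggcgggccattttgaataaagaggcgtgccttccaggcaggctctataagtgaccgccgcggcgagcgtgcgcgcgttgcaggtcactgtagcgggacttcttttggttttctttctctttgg
SMAD6: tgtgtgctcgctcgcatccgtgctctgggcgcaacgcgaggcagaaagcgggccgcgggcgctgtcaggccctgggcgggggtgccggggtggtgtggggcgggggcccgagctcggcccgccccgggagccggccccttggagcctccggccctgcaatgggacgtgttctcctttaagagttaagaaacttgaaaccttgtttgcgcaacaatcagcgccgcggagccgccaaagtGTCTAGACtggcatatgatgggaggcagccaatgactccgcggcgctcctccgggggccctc
The SMAD6 window held the palindromic element with its first base at position -12 from the start, a sequence present in 71 of 35116 RefSeq promoter windows of the same length (0.202%). The ID3 window held 1 SMAD box, with its first base at position -147 from the start, and 45.3% of all windows hold that motif. The ID1 window held none of the 3, and GGCGCC stood in 19.2% of all windows. Over all 10 genes, which have 19 windows, the SMAD box was found in 10 windows, from 5 genes. GGCGCC was found in 2 of the 19 windows (BMP4 and SMAD3) and the palindrome in that of SMAD6 alone. A match is a description of these letters only.

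Signals below are the bead signals of the brightest probe before centring, in the order of replicates 1 and 2, so that the overall brightness of an array is still in them, and every difference and overlap is in the background-corrected log2 level centred on each array. In RNA of whole cultures, fewer cells of a type and less RNA per cell cannot be told apart. Where arrays are said below not to overlap, the share of all genes with such a separation was not computed. Those statements are a description only. With siRNA-1, BMP4, ID1, ID3 and SMAD6 were higher and TGFB2 was lower, which makes 5 of 8 tested genes called at an adjusted p below 0.05 (limma, Benjamini-Hochberg over all tested probes). Of all tested genes, 6.00% were called higher and 5.86% lower in that comparison. C1 at 5 μM gave calls for BMP4 and ID1, both higher, where 2.01% of genes were called higher and 0.473% lower. ID1 was the 1 member called with C2 at 10 μM (2.91% of all genes higher, 0.780% lower) and with C1 at 1 μM (3.73% higher, 2.01% lower). None of the 8 was called with C2 at 2 μM, where 2.80% of genes were higher and 1.29% lower and where 4 of the 8 members and 2673 of the 10773 genes had an unadjusted p below 0.05 in limma. In the other 4 comparisons, in the order above, 5, 4, 4 and 5 of the 8 had one, beside 2869, 2132, 2392 and 2712 of all genes. The members were chosen from measured values of these same comparisons, so these counts and the differences from control below are a description and nothing is read from them as a test. The median log2 fold change over the 8 genes was 0.59 with siRNA-1, beside -0.03 over all tested genes, and 0.14, 0.29, 0.18 and 0.21 with C1 at 5 μM, C2 at 10 μM, C1 at 1 μM and C2 at 2 μM, beside -0.05, -0.02, -0.03 and -0.04.

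**Figure D1:**
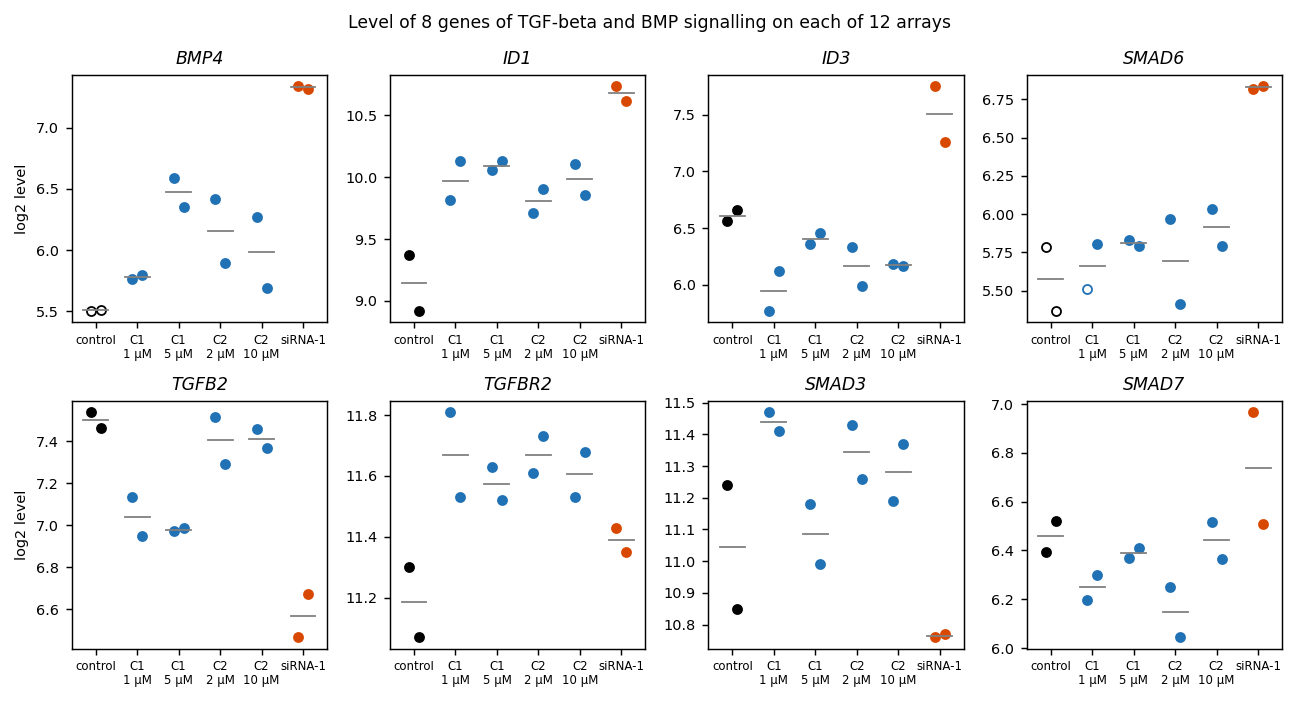
Level of the 8 tested genes on each of the 12 arrays, as log2 of the background-corrected and centred signal of the brightest probe (vertical axes differ in range). Each point is 1 array, open points were not detected at p below 0.05, grey lines are means of 2 arrays, and C1 and C2 are the compounds. The siRNA-1 arrays lie above all other arrays for BMP4, ID1, ID3 and SMAD6 and below all others for TGFB2 and SMAD3. The share of all genes so separated was not computed.

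BMP4 (chr14:53949736-53956891), a secreted BMP ligand, stood lowest on the control arrays and highest with siRNA-1. It gave signals of 26.3 and 28.5 in control cells, 41.7 and 41.9 with C1 at 1 μM, 91.5 and 65.4 at 5 μM, 61.3 and 58.6 with C2 at 2 μM, 57.4 and 33.5 at 10 μM, and 135.4 and 135.6 with siRNA-1. It was not detected on either control array and was detected on the 10 others, so that the comparison with control gives a lower bound. Measured from the lowest signal detected on each control array, BMP4 was at least 3.1-fold higher with siRNA-1 and at least 1.71-fold higher with C1 at 5 μM. The fitted log2 differences were 1.82 and 0.97 (SE 0.20, n = 2 arrays per group). In order of mean level the groups ran from control through C1 at 1 μM, C2 at 10 μM, C2 at 2 μM and C1 at 5 μM to siRNA-1. Neighbours among the 4 inhibitor groups did not differ beyond their spread, and the siRNA-1 arrays lay above the other 10. C1 at 5 μM exceeded 1 μM by 0.69 (95% interval 0.25 to 1.13), with an adjusted p of 0.632 (limma). The call against control at 5 μM was lost without either control array (0.96 without control replicate 1, 0.97 without control replicate 2). It was also lost without either array of C1 at 1 or 5 μM or of siRNA-1.

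Of the 2 TGF-β isoforms among the members, 1 could be tested. TGFB2 (chr1:218345336-218444619), which codes for a TGF-β isoform, had signals of 167.1 and 158.8 on the control arrays, 132.6 and 111.7 with C1 at 1 μM, 123.5 and 110 at 5 μM, 148.6 and 179.5 with C2 at 2 μM, 150.4 and 141.5 at 10 μM, and 66.9 and 81.1 with siRNA-1. The siRNA-1 arrays were below the other 10, and the C1 arrays lay between them and the control. On the log2 scale the difference from control was -0.93 with siRNA-1 (1.91-fold lower, SE 0.13), and it was called. It was -0.46 and -0.52 with C1 at 1 and 5 μM and -0.10 and -0.09 with C2 at 2 and 10 μM, none of them called. TGFB1 (chr19:41330323-41353922), another isoform, had 1 probe, detected on no array, with signals from -13.2 to 11.6. With only 1 probe, a low level and a probe that does not report cannot be told apart.

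TGFBR2 (chr3:30606356-30694142), the type II receptor for TGF-β, was bright on every array. Of its 3 probes 2 were tested and the third was detected on no array (signal -5.8 to 27.6). The brightest probe gave 2452.1 and 2103.9 on the control arrays, 3767.1 and 3028.5 with C1 at 1 μM, 3493.2 and 2890.8 at 5 μM, 2778.8 and 4201.1 with C2 at 2 μM, 2767 and 3111.1 at 10 μM, and 2543.1 and 2457.3 with siRNA-1. All 8 inhibitor arrays exceeded both control arrays in centred level, and so did both siRNA-1 arrays. The log2 differences were 0.49 and 0.39 with C1 at 1 and 5 μM and 0.48 and 0.42 with C2 at 2 and 10 μM (SE 0.14), 1.31- to 1.4-fold, and none was called. The other tested probe gave 0.43, 0.26, 0.33 and 0.41 (SE 0.12) in the same order, also with no call. With siRNA-1 the probes gave 0.21 and 0.14.

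SMAD3 (chr15:67065602-67195169), a receptor-activated SMAD of the TGF-β branch, had signals of 2353 and 1813.4 on the control arrays, 2970.5 and 2780.7 with C1 at 1 μM, 2550.5 and 1985 at 5 μM, 2448.3 and 3031.9 with C2 at 2 μM, 2180.5 and 2506.5 at 10 μM, and 1593.7 and 1641.6 with siRNA-1. It was lowest on the siRNA-1 arrays, with control replicate 2 next above them. No difference from control was called. The log2 difference was -0.28 with siRNA-1 (95% interval -0.61 to 0.05) and 0.39, 0.03, 0.30 and 0.23 with C1 at 1 and 5 μM and C2 at 2 and 10 μM (SE 0.15).

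Of the inhibitory SMADs 1 was called. SMAD6 (chr15:66702236-66782849), which acts mainly on BMP receptors, gave 37.9 and 23.1 on the control arrays, 31.7 and 42.2 with C1 at 1 μM, 47.5 and 39.2 at 5 μM, 40.7 and 36.9 with C2 at 2 μM, 46.5 and 37.1 at 10 μM, and 89.6 and 92.9 with siRNA-1. The other 10 arrays lay near the detection limit, and neither control array was detected. With siRNA-1 SMAD6 was at least 2.19-fold higher than that limit allows for control, with a fitted log2 difference of 1.25 (SE 0.20) that was called. With the inhibitors the fitted differences were 0.08 to 0.34 and none was called. SMAD7 (chr18:48919853-48950965), which blocks both branches, gave 67.4 and 75.5 on the control arrays, 62.1 and 65.8 with C1 at 1 μM, 76.3 and 68.6 at 5 μM, 52.8 and 66.8 with C2 at 2 μM, 71 and 63.1 at 10 μM, and 101 and 70.9 with siRNA-1. The 2 siRNA-1 arrays lay further apart than the 2 arrays of any other group, and 1 of them lay within the control range. Its log2 differences from control ran from -0.31 to 0.28 and none was called. A further SMAD7 probe was detected on no array (-5.6 to 22.6).

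ID1 (chr20:31605289-31606510) lay above control on every treated array. The signal of its brightest probe was 631.1 and 462.4 on the control arrays, 930.7 and 1138.8 with C1 at 1 μM, 1164.4 and 1086.7 at 5 μM, 735.9 and 1176.4 with C2 at 2 μM, 1029.3 and 865.5 at 10 μM, and 1577.2 and 1474.3 with siRNA-1. The siRNA-1 arrays were above all others. The log2 difference was 1.54 with siRNA-1 (2.91-fold, SE 0.17), 0.95 and 0.84 with C1 at 5 μM and C2 at 10 μM, and 0.83 and 0.67 with C1 at 1 μM and C2 at 2 μM. The last of these was not called. Without control replicate 2, which had the lower signal, the differences were 1.32, 0.73, 0.62, 0.61 and 0.44 in the same order, and of these only the one with siRNA-1 was called. The calls with the inhibitors were also lost when either array of the treated group was left out, and C2 at 2 μM was called without control replicate 1 (0.89). The second ID1 probe, a dim one detected on 3 arrays, was tested because both siRNA-1 arrays detected it, and neither control array did. Against the detection limit of the control arrays it was at least 1.23-fold higher with siRNA-1, and no difference with the inhibitors was called. No other group let this probe pass, so a higher value with siRNA-1 was partly built in. Its difference is a description and no second measure of ID1.

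ID3 (chr1:23557926-23559501) was called with siRNA-1, and with the inhibitors its values lay below control with no call. It gave signals of 77.3 and 84.7 in control cells, 41.9 and 56.5 with C1 at 1 μM, 75.3 and 71.4 at 5 μM, 57 and 63.9 with C2 at 2 μM, 53 and 53.1 at 10 μM, and 185.5 and 129.5 with siRNA-1. The siRNA-1 arrays were above, and the 8 inhibitor arrays below, both control arrays in centred level. The log2 difference from control was 0.90 with siRNA-1 (1.86-fold, SE 0.18), which was called, and -0.66, -0.20, -0.45 and -0.44 with C1 at 1 and 5 μM and C2 at 2 and 10 μM, which were not. Without siRNA-1 replicate 1 the first was 0.65, and without control replicate 1 it was 0.85, and neither was called. ID2 (chr2:8682056-8684461) had 2 probes, detected on no array, with signals of -3.7 to 14.6 and -13.5 to 3.4.

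**Figure D2:**
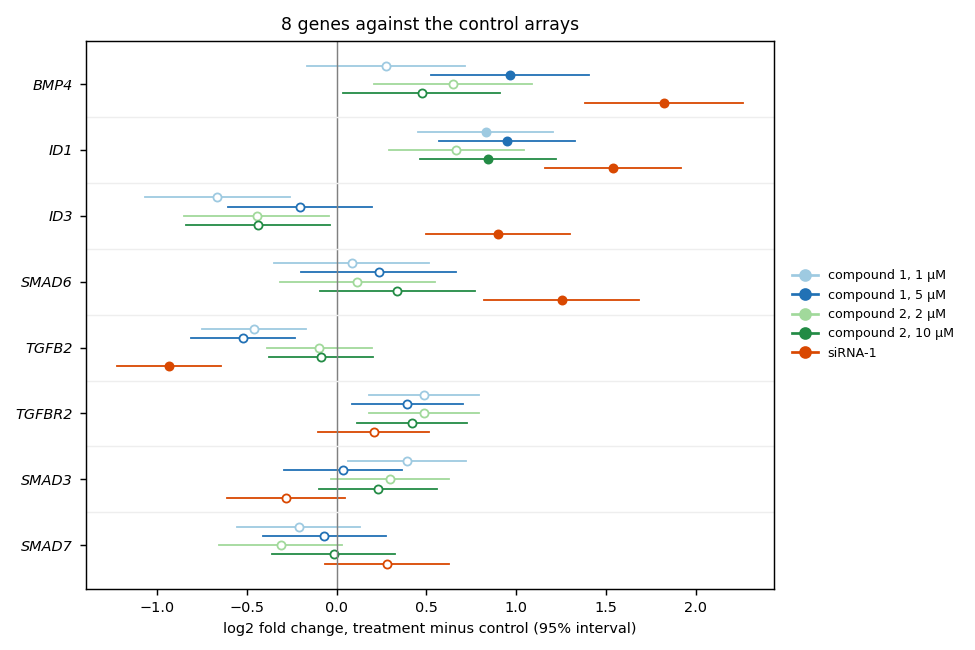
Log2 fold change of the 8 tested genes with each treatment against the control arrays, by the brightest probe. Points are fitted differences, lines their 95% intervals, filled points were called at an adjusted p below 0.05 and open points were not. The 5 filled siRNA-1 points are BMP4, ID1, ID3, SMAD6 and TGFB2, and with the inhibitors the filled points are ID1 in 3 groups and BMP4 with C1 at 5 μM.

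siRNA-1 was next compared with the mean of the 4 inhibitor groups, a contrast that leaves out the control arrays but uses the siRNA-1 arrays again and also differs in time and transfection. Since the members were chosen with results of the siRNA-1 arrays known, these values too are a description and no test. In it 7 of the 8 genes were called, 5 higher and 2 lower with siRNA-1. Of all tested genes 10.9% were called higher and 11.8% lower. ID3 was 1.33 higher on the log2 scale (2.52-fold, limma SE 0.15), BMP4 1.23 higher (2.35-fold, SE 0.16) and SMAD6 1.06 higher (2.08-fold, SE 0.16), and for all 3 both siRNA-1 arrays were above all 8 inhibitor arrays. ID1 was 0.72 higher (95% interval 0.42 to 1.02) and SMAD7 0.43 higher (0.16 to 0.70, with arrays that overlapped). TGFB2 differed by -0.64 (-0.87 to -0.41) and SMAD3 by -0.52 (-0.78 to -0.26), each with both siRNA-1 arrays below all 8. The share of all genes whose arrays separate in this way was not computed. TGFBR2 differed by -0.24 (95% interval -0.48 to 0.00) and was not called. The count was 4 without siRNA-1 replicate 1, where ID1 (0.66), SMAD3 (-0.51) and SMAD7 (0.20) were no longer called, and 6 without siRNA-1 replicate 2, where SMAD3 was not (-0.53). SMAD7 was also not called without C1, 1 μM replicate 1 or C2, 10 μM replicate 2.

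**Figure D3:**
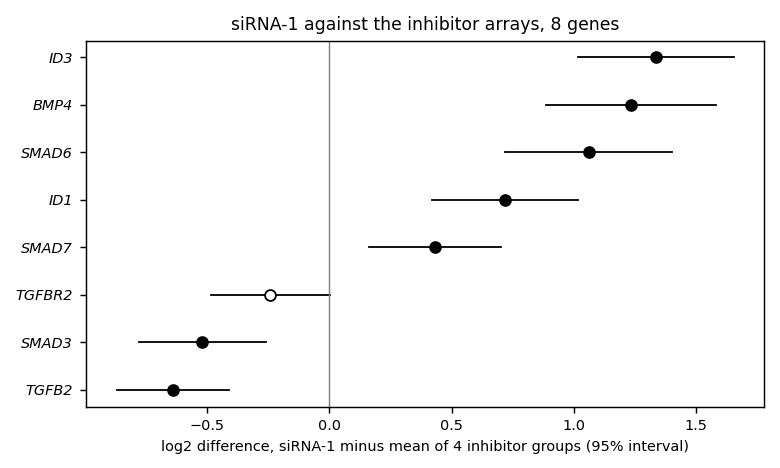
Log2 difference of the 8 tested genes between siRNA-1 and the mean of the 4 inhibitor groups. Points are fitted differences of the brightest probe, lines their 95% intervals, filled points were called and the open point was not. ID3, BMP4 and SMAD6 lie above 1 and TGFB2 lowest at -0.64.

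The higher dose did not differ from the lower dose of the same compound past the threshold. No gene on the array was called between 5 and 1 μM of C1 (0% of tested genes, 693 of 10773 at an unadjusted p below 0.05 in limma) or between 10 and 2 μM of C2 (0%, 297 genes). The unadjusted count held 3 of the 8 members with C1 and 0 with C2. With C1 these were BMP4 at 0.69, ID3 at 0.46 (95% interval 0.06 to 0.86) and SMAD3 at -0.36 (-0.68 to -0.03). ID1 differed between the doses by 0.12 (-0.26 to 0.50) with C1 and by 0.18 (-0.20 to 0.55) with C2. The 2 compounds were given at different doses and were not compared with each other.

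The rest of both pathways was read from fixed lists of 105 further genes, of which 98 had a probe and 48 were tested. With siRNA-1, 11 of the 48 rose and 7 fell against control, and 5 were higher and 13 lower than with the inhibitors (10 and 11 called in all without siRNA-1 replicates 1 and 2). Over all tested genes 6.00% rose and 5.86% fell against control, and 10.9% were higher and 11.8% lower than with the inhibitors, so that the 5 higher genes are near the share of all genes. With the inhibitors 7 rose and 2 fell at 5 μM of C1, 8 and 2 at 10 μM of C2, 9 and 3 at 1 μM of C1, and 4 and 3 at 2 μM of C2, where the shares of all genes were 2.01% and 0.473%, 2.91% and 0.780%, 3.73% and 2.01%, and 2.80% and 1.29%. The median log2 fold change of the 48 was 0.09, 0.13, 0.21, 0.14 and 0.15 in that order, beside -0.03, -0.05, -0.02, -0.03 and -0.04 over all genes. Without control replicate 2 the counts with the inhibitors were 2, 3, 4 and 3 genes, and between 2 and 4 were called without either array of C1 at 5 μM, of C2 at 2 μM or of C2 at 10 μM. Leaving out either array of C1 at 1 μM gave 4 and 5 for that group. C2 at 10 μM gave 6 without either siRNA-1 array, and C2 at 2 μM gave 12 without control replicate 1. The lists were written with earlier results of these arrays known, among them those of TGFBI, IL11 and ID1. These counts and those of the single lists below are therefore a description.

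Among 8 tested ligands 1 rose and 3 fell with siRNA-1, members included, where 6.00% and 5.86% of all genes did. GDF15, a stress-induced distant relative of the BMPs, had the largest called change against control of these listed genes. It gave signals of 1175.9 and 853.4 in control cells, 456.5 to 717.2 on the 8 inhibitor arrays and 108.7 and 68 with siRNA-1. On the log2 scale it fell by 3.26 with siRNA-1 (limma SE 0.22, adjusted p = 7.56e-06), by 1.04 with C1 at 1 μM (adjusted p = 0.0244) and by 1.03 with C2 at 2 μM (adjusted p = 0.0328). These last 2 calls were lost without either control array, and the differences at the higher doses, -0.77 and -0.69, were not called. INHBE, which codes for the activin subunit βE, fell with all 5 treatments. It gave signals of 53.7 and 68 in control cells and 15.2 to 41.3 on all others. It was not detected with siRNA-1 or with C1 at 1 μM, where it was at least 1.63- and 1.65-fold lower (adjusted p = 0.00212 and 0.00705), and the fitted differences in the other 3 groups were -0.84, -0.76 and -0.63. Apart from siRNA-1, the calls for INHBE were lost without control replicate 2, and the one with C2 at 2 μM (adjusted p = 0.0488) was called under 1 of 19 other settings.

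Of 6 tested genes for latency and activation of TGF-β, 2 rose and none fell with siRNA-1, C1 at 5 μM and C2 at 10 μM. In the same order 6.00%, 2.01% and 2.91% of all genes rose. LTBP2, an extracellular matrix protein of the latent TGF-β-binding protein family, went from 107.8 and 88.7 on the control arrays to 214.8 to 347.5 with the inhibitors and 141 and 180.1 with siRNA-1. It rose by 1.36 with C2 at 10 μM (SE 0.15, limma adjusted p = 0.00147) and by 0.70 with siRNA-1 (adjusted p = 0.0137, lost without control replicate 2 or siRNA-1 replicate 2). It was 0.51 lower with siRNA-1 than with the inhibitors (adjusted p = 0.013, lost without siRNA-1 replicate 1). LTBP3, which holds latent TGF-β in the matrix, differed from control by 0.88 to 1.10 with the inhibitors and was called in 1 of the 4 groups, C2 at 10 μM (adjusted p = 0.0394). The control arrays of LTBP3 were far apart (77.5 and 32.6), and the call was kept by 8 of 20 other settings and lost without control replicate 2 (0.63). THBS1, an activator of latent TGF-β, rose by 0.62 with C1 at 5 μM (adjusted p = 0.0497), a call that 4 of 20 other settings kept. BMP1, a metalloproteinase that frees BMPs from chordin, rose by 0.58 with siRNA-1 (adjusted p = 0.0242, lost without control replicate 2 or either siRNA-1 array).

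Of 8 tested receptors, 2 rose with siRNA-1, where 6.00% of all genes did, and none fell in any comparison with control. TGFBR3, the co-receptor betaglycan, went from 318.9 and 271.5 on the control arrays to 392 to 567.8 with the inhibitors and 506.7 and 534.1 with siRNA-1. Under siRNA-1 it rose by 0.86 (limma SE 0.14, adjusted p = 0.00232) and by 0.77, 0.64 and 0.62 with C1 at 5 μM, C2 at 10 μM and C1 at 1 μM, and the calls with the inhibitors were lost without control replicate 2. BMPR2, the type II receptor for BMPs, was 0.75 higher with siRNA-1 (adjusted p = 0.0379), called under 12 of 20 other settings, and 0.46 to 0.76 above control with the inhibitors, with no call. A second BMPR2 probe was called with siRNA-1 (0.73, adjusted p = 0.0234) and with C1 at 1 μM (0.73, adjusted p = 0.0378). Of 6 tested SMADs, SMAD6 was the 1 called against control.

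Of 5 tested secreted antagonists 2 fell with siRNA-1, where 5.86% of all genes did. Of 9 tested membrane and intracellular inhibitors 2 rose with it, where 6.00% of all genes did. FST, or follistatin, which traps activins, had signals of 644.3 and 894.3 on the control arrays, 856.5 to 1177 with the inhibitors and 188 and 172.9 with siRNA-1. Under siRNA-1 it fell by 1.92 (limma SE 0.16, adjusted p = 2.33e-05) and was 0.26 to 0.38 above control with the inhibitors, with no call. A second, dim FST probe was detected on 1 control array and on neither siRNA-1 array. Its fitted log2 difference was -0.92 (limma adjusted p = 0.0261), with undetected arrays in both groups. NBL1, a BMP antagonist of the DAN family, fell by 0.45 with siRNA-1 (adjusted p = 0.0494), a call that 1 of 20 other settings kept, and a second NBL1 probe differed by -0.40 (adjusted p = 0.0768) and was not called. PMEPA1, a membrane protein that sequesters receptor-activated SMADs, went from 75.9 and 54.9 on the control arrays to 103.9 to 182.1 with the inhibitors and 295.3 and 369.7 with siRNA-1. It rose by 2.18 with siRNA-1 (SE 0.16, adjusted p = 1.25e-05) and by 0.73 to 1.12 with the 4 inhibitor groups. Its calls with the inhibitors were lost without control replicate 2, and a second PMEPA1 probe rose with siRNA-1 alone (1.28, adjusted p = 0.00163) with 0.25 to 0.53 for the inhibitors, not called. BAMBI, a decoy receptor and a BMP target, went from 256.1 and 240.4 on the control arrays to 492.5 and 505 with siRNA-1, a rise of 1.03 (SE 0.12, adjusted p = 0.000217). It rose by 0.62 and 0.51 with C1 at 5 and 1 μM, calls that were lost without control replicate 2, and it was 0.57 higher with siRNA-1 than with the inhibitors (adjusted p = 0.00182).

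Of 15 tested TGF-β target genes, 7 rose and 3 fell with siRNA-1, where 6.00% and 5.86% of all genes did. Against the inhibitors 4 were higher and 6 lower with siRNA-1, where 10.9% and 11.8% of all genes were. The list was written with TGFBI and IL11 seen, so these counts are a description. Of 5 tested BMP target genes, 4 of them members, 4 rose with siRNA-1, where 6.00% of all genes did. All 5 were higher with it than with the inhibitors, where 10.9% of all genes were. Those 4 members were chosen with results of the siRNA-1 arrays known, and the list was written with ID1 seen. The counts for BMP target genes thus partly repeat that choice and are a description, from which no response of the pathway is read. TGFBI, a matrix protein induced by TGF-β, had signals of 1608.5 and 1356.6 on the control arrays, 3184.4 to 4206.9 with the inhibitors and 2362.7 and 2897.2 with siRNA-1, so that both siRNA-1 arrays lay between the other groups. It was called higher than control with every treatment, by 0.89 with siRNA-1 and by 1.18 to 1.4 with the inhibitors. All 20 other settings kept each of these calls. TGFBI was 0.36 lower with siRNA-1 than with the inhibitors (limma adjusted p = 0.0354), a call that 7 of 20 other settings kept. IL11, a cytokine induced by TGF-β, went from 496.8 and 463.5 on the control arrays to 167 to 298.6 with the inhibitors and 89.6 and 92.2 with siRNA-1. It was called lower than control with every treatment, by 2.15 with siRNA-1 and by 0.91 to 1.45 with the inhibitors. The call with C2 at 2 μM was kept by 18 of 20 other settings, and the rest by all 20. IL11 was 0.99 lower with siRNA-1 than with the inhibitors (adjusted p = 4.83e-05).

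**Figure D4:**
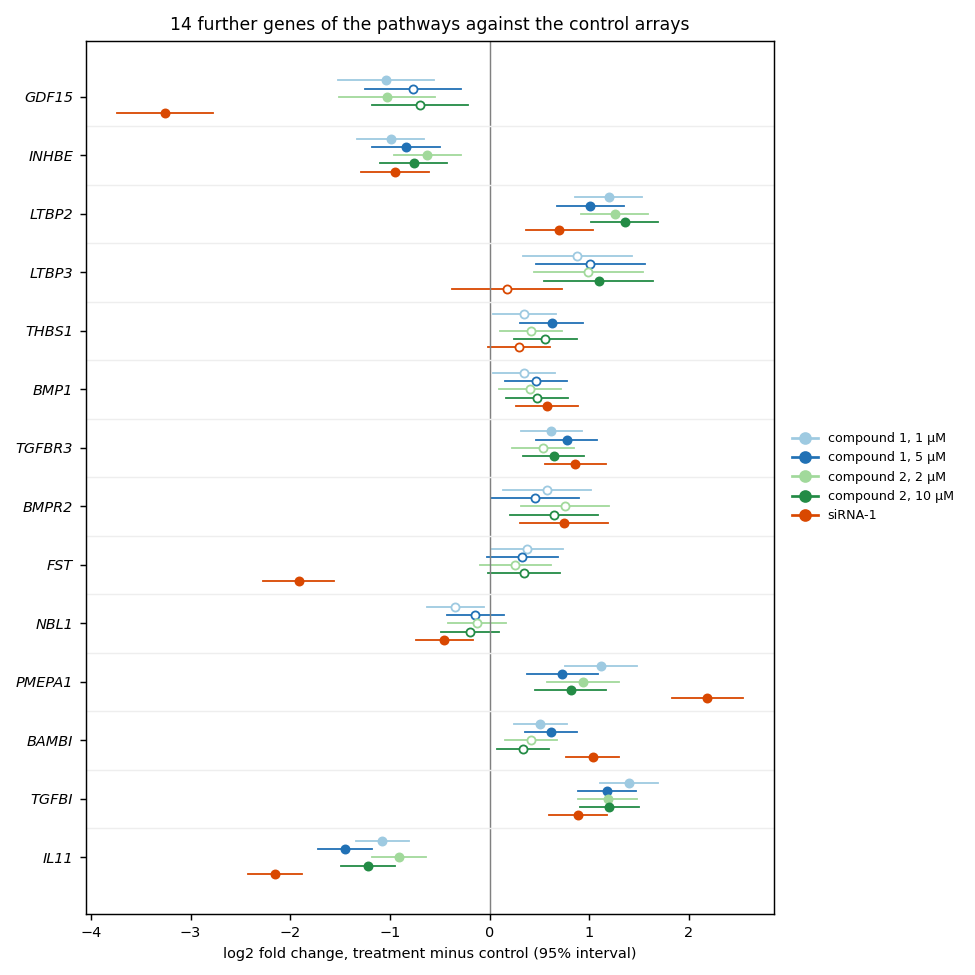
Log2 fold change of 14 further genes of the pathways with each treatment against control, by the brightest probe. Points are fitted differences, lines their 95% intervals, and filled points were called at an adjusted p below 0.05. GDF15, IL11 and FST lie furthest to the left with siRNA-1 (-3.26, -2.15 and -1.92) and PMEPA1 furthest to the right (2.18).

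For the 5 members called against control, the genes whose brightest probe followed them most closely over the 12 arrays were listed by Pearson's r, as a description, since the arrays share their groups. ID1 was followed by ASAP3 (0.985), CDKN1A (0.967) and MALL (0.967). BMP4 was followed by GFOD2 (0.959), OASL (0.944) and HLA-DPA1 (0.941), and ID3 by MSRB1 (0.975), TP53I3 (0.971) and IFT25 (0.964). SMAD6 was followed by GALNT6 (0.954), SHC3 (0.953) and KLHL4 (0.943), and TGFB2 by SRGAP1 (0.959), FAM234B (0.932) and MSRB3 (0.92).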

How the data were processed

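Per the study's methods and labels, RNA was hybridised to Illumina Human HT-12 v4 arrays and read with BeadStudio (version not given in the sources used here). The intensity values deposited by the authors are background-subtracted bead signals without normalization. The detection p-values deposited by the authors stand in another line order than the signals (rank correlation per line -0.0041 to 0.0029), so they were assigned by rank within each array. The log2 values of the series matrix, made by the authors, are log2 signals floored at 1 from which each array's median was taken (largest difference 5e-09), and served as an alternative. There the 2 columns of C2 at 10 μM are exchanged against the raw table.

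Of 47324 lines 2 were damaged and left out. Signals were corrected with normexp (offset 16) in limma 3.58.1 (R 4.3.3), taken to log2 and centred by the median over the 11805 probes that every array detected at p under 0.01. The 17909 probes that some group detected at p under 0.05 on each of its arrays were fitted together, with 1 mean for each of the groups (residual df 6, prior df 5.58), and p-values were adjusted by Benjamini and Hochberg over them. A call is an adjusted p below 0.05. A gene is its brightest tested probe. Symbols came from the platform annotation, updated through RefSeq (30113 probes with 1 symbol, 8 with several, 17201 with none). The number of arrays limits the precision. A lower bound sets each array of the group without detection at the higher of its own value and the lowest level detected on it. Bounds are given where all arrays of the other group were detected.

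The members and gene lists were chosen with earlier results of these data known. The genes named are all members, from each list up to 4 other genes with the largest change among those called against control, and the 3 genes most like each called member. Other normalizations, filters, fits and each left-out array were tried. The fit was tested on simulated data. Plots used Python 3.11.15 and matplotlib 3.10.9.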

Additional observations from a re-analysis of the deposited data

Results flagged for a closer look

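Among the members and the other genes described by name, 4 were found for which siRNA-1 and all 4 inhibitor groups lay on opposite sides of the control mean and the difference between them passed the threshold (limma, adjusted over all tested probes, n = 2 against 8 arrays). Genes of the lists that are not named were not searched. The share of all tested genes that meet this rule was not computed, so the count is not read as unusual. In the comparison itself 10.9% of all tested genes were called higher and 11.8% lower. The comparison uses the siRNA-1 arrays a second time and also differs in treatment time and transfection. For the 3 members among them it is a description, since they were chosen with results of these arrays known. For FST it is a description too, since FST was named for its called change with siRNA-1 against control. FST was lower with siRNA-1 than with the inhibitors (log2 difference -2.25, adjusted p = 8.75e-07), and ID3 was 1.33 higher. SMAD3 differed by -0.52, although it lay 0.03 above control with C1 at 5 μM, and at -0.16 there without control replicate 2. SMAD7 differed by 0.43, although it lay 0.02 below control with C2 at 10 μM, and that sign changed when single arrays were left out (-0.09 to 0.06). Groups of 2 arrays are too small to test single arrays as outliers.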

How the results depend on the processing

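Each count was recomputed under 21 alternatives, 12 of which left out 1 array. Each called value was recomputed under 20 of them, or 19 where a filter removed the gene. Of 16 called member values, 8 were called under every alternative that could measure them (BMP4, TGFB2 and SMAD6 with siRNA-1 in both comparisons, ID1 with siRNA-1 against control, ID3 with siRNA-1 against the inhibitors). Of 315 member values recomputed, 284 stayed called in the same direction, 31 were no longer called and 0 changed sign. Of 49 called values of other pathway genes, 23 were called throughout, and 0 of 975 recomputed values changed sign. The causes were not tested, beyond fewer arrays or genes in a fit.

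Members called with siRNA-1 against control fell from 5 to 3 among probes detected on all 12 arrays, which leaves out BMP4 and SMAD6, and were 4 to 5 without single arrays. With C1 at 5 μM they fell from 2 to 0 when only the arrays compared were fitted (0 to 2 without single arrays), and with C2 at 10 μM from 1 to 0 in that fit and without background correction (0 to 1). With C1 at 1 μM the count of 1 became 0 in both of these, 2 with centring on all probes or quantile normalization, and 4 among probes detected on all arrays (0 to 3). With C2 at 2 μM the count of 0 became 3, 3 and 2 under these last 3 (0 to 2). siRNA-1 against the inhibitors gave 7, and 4 to 7 without single arrays.

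Other pathway genes called with C1 at 5 μM fell from 9 to 4 in the series matrix and 2 in the fit of the arrays compared (2 to 13 without single arrays), with C2 at 10 μM from 10 to 5 without background correction, 6 in the series matrix and 3 in the smaller fit (3 to 14), and with C1 at 1 μM from 12 to 7 in it (4 to 17). With C2 at 2 μM 7 became 11 with centring on all probes or detection on all arrays and 2 in the smaller fit (2 to 12). With siRNA-1 the count of 18 became 13 to 18 against control and 10 to 17 against the inhibitors.

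Centring on all probes moved the median log2 change of tested probes from -0.06 to 0.06 with C1 at 1 μM and with C2 at 2 μM, and the share of called probes that were higher from 55% to 87.6% and from 61.2% to 92.6%. That share moved from 72.7% to 91.2% with C1 at 5 μM, from 71% to 86.4% with C2 at 10 μM and from 48.7% to 35.2% for siRNA-1 against the inhibitors, and in the series matrix from 48.5% to 61.9% for siRNA-1 against control and to 93.5%, 89.3% and 88.2% with C2 at 10 μM, C1 at 1 μM and C2 at 2 μM. Replicate numbers showed no common pairing of the samples (15 pairs of groups, r of their deviations -0.38 to 0.21, 2 above 0.1). A pairing with the numbers exchanged in 1 group would give a negative r, and this was not tested. With the replicate block the member counts with siRNA-1, C1 at 5 μM, C2 at 10 μM, C1 at 1 μM, C2 at 2 μM and siRNA-1 against the inhibitors were 5, 2, 1, 1, 0 and 7, as without it, and those of other pathway genes 16, 8, 10, 11, 7 and 16.

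The probes of TGFB1 and ID2 were detected on no array. BMP4 and SMAD6 were detected on neither control array. With siRNA-1 their signals were above the limit, at 135.4 and 135.6 for BMP4 and 89.6 and 92.9 for SMAD6.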
